A study of Mus musculus with 12 samples.

Results

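The vascular endothelial growth factor (VEGF) ligands Vegfa, Vegfb, Vegfc and Pgf, the receptor tyrosine kinases Kdr (VEGFR2), Flt1 (VEGFR1) and Flt4 (VEGFR3), and the co-receptors Nrp1 and Nrp2 were followed across sorted cells of early mouse embryos. A probe set, the group of short array probes that reads 1 transcript, was taken where the platform annotation gave it a single gene symbol and that symbol was 1 of these 9. This found 22 of 45037 probe sets and 9 of 18193 genes: 4 each for Flt1, Nrp1 and Nrp2, 3 for Vegfc, 2 each for Flt4 and Vegfa, and 1 each for Kdr, Vegfb and Pgf. The rule is a list of gene names with no threshold on a measured value, and the list was drawn up with earlier results of these data known.

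Embryos were taken at embryonic day 8.0 from an ER71 EYFP line on a mixed C57BL/6 and FVB background. ER71, also called Etv2, is an ETS-family transcription factor needed for the first endothelial and blood cells. Trypsin-dissociated cells were sorted by EYFP fluorescence, which gave 4 groups of 3 arrays: ER71 mutant EYFP-positive cells, ER71 wild-type EYFP-positive cells, ER71 mutant EYFP-negative cells and ER71 wild-type EYFP-negative cells (mutant positive, wild-type positive, mutant negative and wild-type negative below). All 4 groups therefore come from the EYFP line, and all RNA was amplified before labelling. The labels do not give the sequence that drives EYFP, the part of ER71 that is altered, or whether the 3 samples of a group are separate embryos, litters or pools, so p-values measure the spread between these samples.

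VEGF ligands bind receptor tyrosine kinases on endothelial cells and their precursors. Kdr carries most of the VEGF-A signal and marks mesoderm that can form endothelium, blood and heart. Flt1 binds VEGF-A, VEGF-B and placental growth factor (Pgf), signals weakly, and as a soluble form withholds ligand from Kdr. Flt4 is the receptor of VEGF-C and VEGF-D and is found on early embryonic endothelium before it becomes largely lymphatic. The neuropilins bind VEGFs and class 3 semaphorins and act beside the kinases and the plexins.

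The 4 genes whose brightest probe set differed between the sorted fractions of the wild type are shown by the 250 bases before the transcription start that RefSeq gives (GRCm38.p6), since ER71 belongs to a family whose sites hold the core GGAA. Each is written 5′ to 3′ on the strand of its gene, with GGAA and its reverse complement in capitals.
Kdr promoter, chr5:75978456-75978705, minus strand: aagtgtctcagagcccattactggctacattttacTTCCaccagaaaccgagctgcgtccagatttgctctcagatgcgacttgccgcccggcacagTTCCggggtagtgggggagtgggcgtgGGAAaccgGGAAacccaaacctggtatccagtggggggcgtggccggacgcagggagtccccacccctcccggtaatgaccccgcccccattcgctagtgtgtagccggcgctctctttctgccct
Flt1 promoter, chr5:147726012-147726261, minus strand: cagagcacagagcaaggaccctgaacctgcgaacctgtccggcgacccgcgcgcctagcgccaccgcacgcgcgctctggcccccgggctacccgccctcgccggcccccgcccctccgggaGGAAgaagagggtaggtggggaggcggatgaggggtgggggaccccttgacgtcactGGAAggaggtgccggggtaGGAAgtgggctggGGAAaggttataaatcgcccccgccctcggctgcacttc
Flt4 promoter, chr11:49609429-49609678, plus strand: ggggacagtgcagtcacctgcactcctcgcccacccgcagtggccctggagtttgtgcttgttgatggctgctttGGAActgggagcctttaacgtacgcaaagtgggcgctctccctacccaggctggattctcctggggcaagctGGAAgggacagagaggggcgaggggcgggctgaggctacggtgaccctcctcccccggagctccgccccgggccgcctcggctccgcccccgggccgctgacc
Nrp1 promoter, chr8:128358823-128359072, plus strand: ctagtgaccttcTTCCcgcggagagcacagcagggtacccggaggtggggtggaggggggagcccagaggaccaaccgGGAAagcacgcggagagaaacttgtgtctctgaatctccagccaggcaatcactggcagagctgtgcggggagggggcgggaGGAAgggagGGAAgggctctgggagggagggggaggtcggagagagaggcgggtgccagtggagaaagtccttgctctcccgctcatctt
The table matched all 9 genes. For Kdr, Flt1, Nrp1, both windows of Pgf and 1 of the 2 windows of Vegfa its start was not the outer end of the RefSeq gene record. Counted on both strands, GGAA occurred 4 times before Kdr, 4 times before Flt1, 2 times before Flt4 and 4 times before Nrp1. It occurred 1 time before each of Nrp2, Vegfb and Vegfc, 2 and 6 times in the 2 windows of Vegfa, and 0 times in both windows of Pgf. Of 32851 promoter windows of this length, 93.4% held GGAA on either strand, so its presence does not set these windows apart. The longer CCGGAA, which contains GGAA, was found before Kdr alone among the 9 genes, 1 time, and in 12% of all windows. ACAGGAA, which also contains GGAA, was found in none of the members' windows and in 7.2% of all windows. These matches describe letters in a window and were not tested as binding sites.

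Values are log2 RMA signals (robust multi-array average), so a difference of 1 is a 2-fold change, and levels are compared between groups within a probe set only. A difference passes where limma's p-value, adjusted by Benjamini-Hochberg over all probe sets, is under 0.05. Positive minus negative cells of 1 genotype is its sort difference, and the comparison is called the mutant or the wild-type sort. The array medians lay between 6.98 and 7.06 and the lower quartiles between 5.62 and 5.69. Etv2 itself read 7.40, 7.26 and 7.28 in mutant positive cells, 10.72, 10.70 and 11.36 in wild-type positive cells, 7.49, 7.43 and 7.24 in mutant negative cells, and 7.58, 7.50 and 7.85 in negative cells of the wild type. Mutant positive cells thus fell in the range of the negative cells and differed from wild-type positive cells by -3.61 ± 0.17 (SE, limma adjusted p = 5.49e-07). The mean of 7 endothelial markers lay at 6.29 to 6.60 in mutant positive, 9.05 to 9.37 in wild-type positive, 5.99 to 6.16 in mutant negative and 5.89 to 5.99 in wild-type negative arrays. All 7 were lower in mutant positive than in wild-type positive cells, and 3 of the 7 sat below the lower quartile of every mutant positive array. Of the 7, Tek alone was higher in mutant positive than mutant negative cells, by 2.04 ± 0.28 (adjusted p = 0.00334). In sorted bulk samples such as these, fewer cells of a type and less RNA per cell cannot be told apart. Both wild-type arrays numbered 1 differed from the other 10 in Xist and Eif2s3y. Xist read 10.33 in positive and 8.19 in negative cells there, against 13.36 to 13.98 on the others. Eif2s3y read 10.81 and 11.23, against 4.11 to 4.53. No mutant array showed this, so the genotypes were not balanced for it. Yolk sac endoderm markers averaged 11.1 on mutant positive array 1 against 5.91 on the lowest array of that group.

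Kdr kept most of its enrichment in EYFP-positive cells when ER71 was mutated. Its probe set (1449379_at) read 11.48, 11.72 and 12.17 in mutant positive cells and 12.57, 12.13 and 12.28 in wild-type positive cells. The mutant negative arrays read 9.19, 9.23 and 9.24, and the wild-type negative arrays 9.08, 9.17 and 9.24. The positive groups overlapped each other, the negative groups overlapped each other, and every positive array lay more than 2 log2 units above every negative one. The positive-negative difference was 2.57 ± 0.17 in mutants (SE, n = 3 arrays each, 5.95-fold, adjusted p = 0.000141) and 3.17 ± 0.17 in wild types (8.97-fold, adjusted p = 1.17e-06). Between mutant and wild-type positive cells Kdr differed by -0.54 ± 0.17 (95% interval -0.90 to -0.17), which did not pass (adjusted p = 0.106) but passed without mutant positive array 3 (-0.73, adjusted p = 0.0194). The difference between the 2 sort effects was -0.59 ± 0.23 (95% interval -1.11 to -0.08, adjusted p = 0.405).

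Flt1 was far lower in mutant positive than in wild-type positive cells. The brightest probe set (1451756_at) read 8.66, 9.29 and 9.08 in mutant positive cells, 12.05, 11.77 and 11.28 in wild-type positive cells, 8.23, 8.45 and 8.10 in mutant negative cells, and 8.02, 8.10 and 8.14 in negative cells of the wild type. Mutant positive arrays lay between the groups, above every negative array and more than 1 log2 unit below every wild-type positive one. The second probe set (1419300_at) showed the same order, with 6.96, 7.37 and 7.50 in mutant positive cells against 10.31, 10.03 and 10.16 in wild-type positive cells. The third (1440926_at) read 6.22, 5.99 and 5.94 in mutant positive cells against 9.43, 9.19 and 8.78 in wild-type positive cells, and its mutant positive and mutant negative arrays overlapped. Relative to wild-type positive cells these 3 differed by -2.69 ± 0.20, -2.89 ± 0.24 and -3.08 ± 0.19 in mutant positive cells (limma adjusted p = 1.84e-05, 4.1e-05 and 4.94e-06).

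Within the wild type, the same 3 probe sets of Flt1 were higher in positive than in negative cells by 3.61 ± 0.20, 3.90 ± 0.24 and 3.46 ± 0.19. Within the mutant, the differences were 0.75 ± 0.20, 0.92 ± 0.24 and 0.22 ± 0.19, and none passed (adjusted p = 0.0926, 0.0811 and 0.8). Positive and negative mutant arrays of 1 number were taken as paired from these data, since the labels state no pairing. Their deviations from group means correlated at 0.659, 0.414 and 0.52. The main tests used no block. With array number within genotype as a random block, wild types included, the brighter 2 passed (adjusted p = 0.0375 and 0.0281). With a fixed block only 1419300_at did (adjusted p = 0.0418). That probe set also passed without mutant negative array 2 (1.17, adjusted p = 0.0252), on which it read 6.86 against 6.10 and 6.11. The embryonic globin Hbb-y read 11.55 on that array against 5.01 and 4.71 on the other mutant negative arrays. Hbb-y was also high on wild-type negative arrays 1 and 3, at 10.80 and 11.94, against 5.59 on array 2. Whether this bears on the Flt1 readings was not tested. The brightest passed without mutant positive array 1 (0.92, adjusted p = 0.0492), and also without wild-type positive array 3, which alters only the shared spread (adjusted p = 0.0436). The dimmest Flt1 probe set (1454037_a_at) lay near the lower quartile of the arrays, at 5.40 to 5.63 in mutant positive, 5.86 to 6.07 in wild-type positive, 5.41 to 5.81 in mutant negative and 5.19 to 5.34 in wild-type negative cells. It was higher in wild-type positive than negative cells by 0.70 ± 0.12 (adjusted p = 0.00605), and its difference between mutant and wild-type positive cells was -0.47 ± 0.12 (adjusted p = 0.0504, and 0.0403 or 0.0316 without mutant negative array 1 or 3).

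Flt4 was as low in mutant positive cells as in the negative cells, within the spread of the arrays. Its brightest probe set (1444052_at) read 7.10, 6.999 and 6.77 in mutant positive cells, 10.64, 10.65 and 10.76 in wild-type positive cells, 6.95, 6.89 and 6.72 in mutant negative cells, and 6.96, 6.88 and 6.85 in negative cells of the wild type. The 3 wild-type positive arrays stood alone, and the other 3 groups overlapped. The mutant positive cells differed from the wild-type positive cells by -3.73 ± 0.11 (13.3-fold lower, adjusted p = 1.38e-08), and differed from mutant negative cells by 0.10 ± 0.11 (95% interval -0.13 to 0.33, adjusted p = 0.848). In the wild type the positive-negative difference was 3.79 ± 0.11 (13.8-fold, adjusted p = 1.17e-08). The second probe set (1421442_at) moved far less, at 7.57, 7.59 and 7.61 in mutant positive, 7.98, 8.14 and 7.88 in wild-type positive, 7.78, 7.81 and 7.74 in mutant negative and 7.54, 7.65 and 7.57 in wild-type negative cells. By mean over all arrays 1421442_at lay close to 1444052_at (7.74 against 7.85), and it read higher in the 3 groups other than wild-type positive. The rank of 1444052_at as brightest therefore rests on the wild-type positive arrays. Probe set 1421442_at is not a dim one. It differed by -0.41 ± 0.09 between mutant and wild-type positive cells (adjusted p = 0.0246) and by 0.41 ± 0.09 between wild-type positive and negative cells (adjusted p = 0.0224). The first call was lost without any 1 of mutant positive arrays 1, 2 and 3 or wild-type positive arrays 1 and 2 (adjusted p = 0.0559 to 0.0835). The second ended when wild-type positive array 1 or 2 or wild-type negative array 1 or 3 was left out (adjusted p = 0.0547 to 0.0898).

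**Figure D1:**
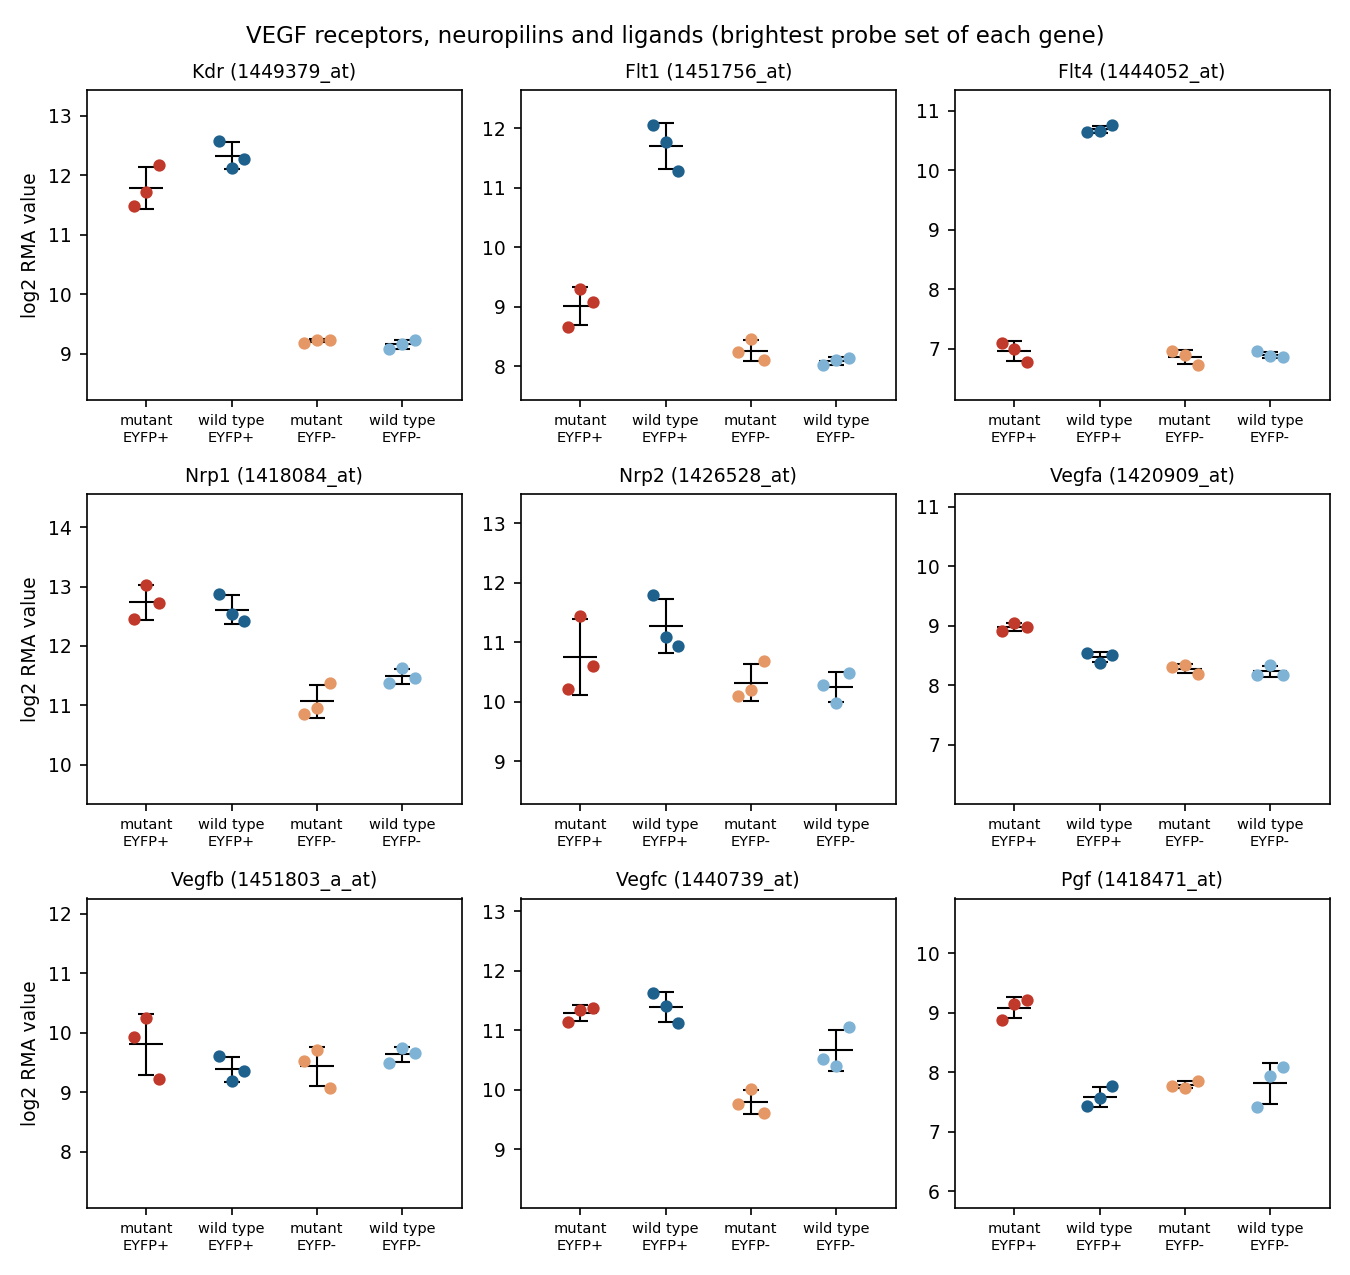
Log2 RMA value (vertical axis) of the brightest probe set of each of the 9 genes in mutant EYFP+, wild-type EYFP+, mutant EYFP- and wild-type EYFP- cells. Coloured points are single arrays and black bars the mean ± SD of 3; every panel spans the same number of log2 units. Flt1 and Flt4 are high in wild-type EYFP+ cells alone, Kdr is high in both EYFP+ groups, and Pgf is high in mutant EYFP+ cells (8.89 to 9.22).

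The sort difference of Flt1 and Flt4 changed with genotype by the test of that change itself. The mutant sort difference minus the wild-type sort difference was -3.69 ± 0.15 for Flt4 1444052_at (adjusted p = 6.35e-07). It was -2.86 ± 0.28, -2.99 ± 0.34 and -3.24 ± 0.27 for the 3 brighter Flt1 probe sets (adjusted p = 0.000353, 0.000977 and 0.000125). The dimmest Flt1 probe set, 1454037_a_at, also passed at -0.81 ± 0.17 (adjusted p = 0.0456), as did the second of Flt4, 1421442_at, at -0.60 ± 0.12 (adjusted p = 0.0466). Neither of these calls was stable. Leaving out any 1 array but wild-type positive array 1 or mutant negative array 3 ended the Flt1 call (adjusted p = 0.0575 to 0.129). Leaving out any 1 but wild-type positive array 3 ended the Flt4 call (adjusted p = 0.0741 to 0.124). The endothelial markers given above fell together with Flt1 and Flt4 in mutant positive cells. So did all 5 primitive blood markers, whose mean lay at 5.89 to 6.07 in mutant positive, 11.6 to 12.2 in wild-type positive, 5.97 to 8.33 in mutant negative and 6.12 to 9.04 in wild-type negative arrays. The part of these cells in the receptor differences was not tested. In the negative cells no receptor probe set passed between mutant and wild type, with differences from -0.04 to 0.34.

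**Figure D2:**
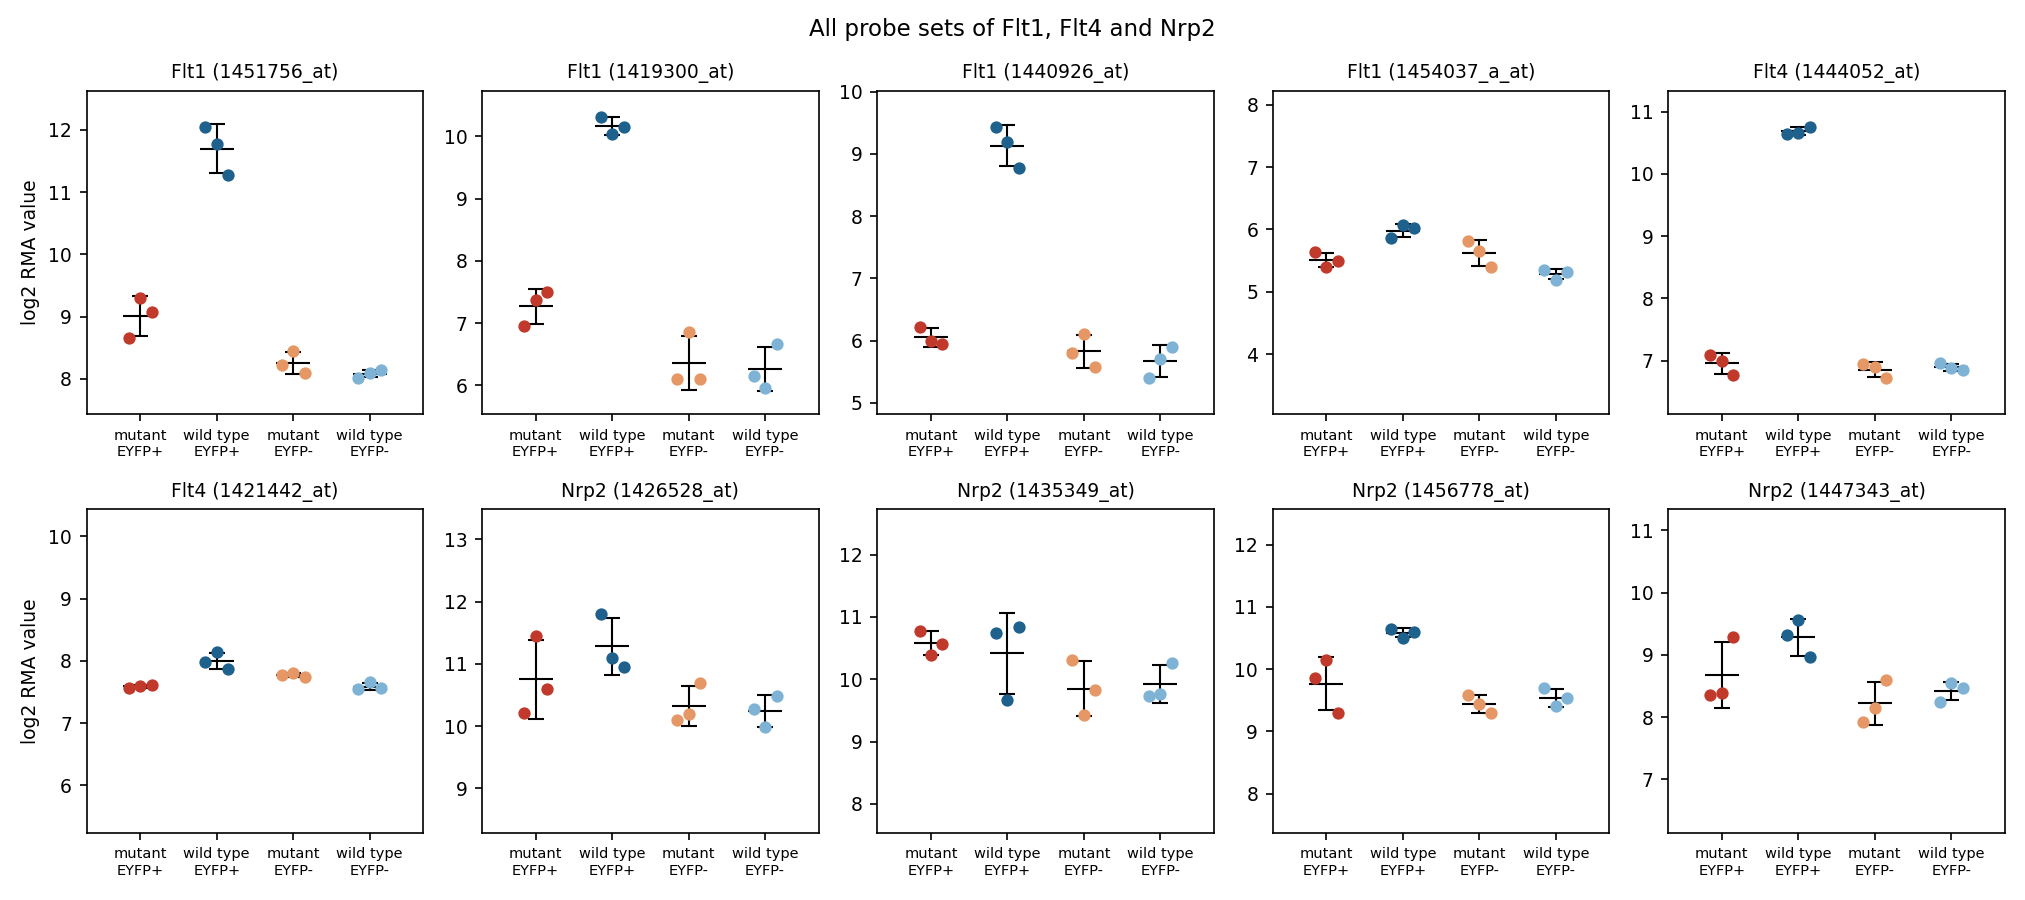
Log2 RMA value (vertical axis) of all probe sets of Flt1, Flt4 and Nrp2, brightest first, in mutant EYFP+, wild-type EYFP+, mutant EYFP- and wild-type EYFP- cells. Points are single arrays, bars the mean ± SD of 3, and panels span the same number of log2 units. The dimmest Flt1 and Flt4 probe sets show the order of the brighter ones between the EYFP+ groups with a much smaller difference, -0.47 and -0.41.

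Nrp1, the co-receptor of VEGF-A and semaphorin 3A, was higher in EYFP-positive cells of both genotypes. Its brightest probe set (1418084_at) read 12.45, 13.03 and 12.72 in mutant positive cells, 12.88, 12.54 and 12.42 in wild-type positive cells, 10.86, 10.96 and 11.38 in mutant negative cells, and 11.38, 11.63 and 11.46 in negative cells of the wild type. The 2 positive groups overlapped, and every positive array exceeded every negative one. The sort difference was 1.67 ± 0.18 in mutants (3.18-fold, adjusted p = 0.00108) and 1.12 ± 0.18 in wild types (2.18-fold, adjusted p = 0.00486). Probe sets 1448943_at and 1448944_at also passed, at 1.29 ± 0.12 and 1.74 ± 0.17 in mutants (adjusted p = 0.000464 and 0.000577) and 0.90 ± 0.12 and 1.01 ± 0.17 in wild types (adjusted p = 0.00121 and 0.00537). Without both wild-type arrays numbered 1, the wild-type calls of 1418084_at and 1448944_at ended (adjusted p = 0.0794 for each). The dimmest (1457198_at) differed by 0.88 ± 0.28 in mutants (adjusted p = 0.186, or 0.0287 and 0.0596 with the pair as a fixed and a random block) and by 1.10 ± 0.28 in wild types (adjusted p = 0.0558). The wild-type value passed with the wild-type groups alone in the fit (adjusted p = 0.0042). It also passed without mutant positive array 1 or 3 or mutant negative array 1 (adjusted p = 0.00907 to 0.047). None of these is in that contrast, and they act through the shared estimate of spread. With all arrays it passed among probe sets above the median of means (0.0414), with median centring (0.0487) and with array weights (0.0445). That probe set spread most among mutant positive arrays, at 9.12, 9.56 and 10.41.

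Between mutant and wild-type positive cells the 4 Nrp1 probe sets differed by 0.12, -0.00079, 0.32 and -0.10, brightest first, and none passed (adjusted p = 0.363 to 0.998). For the brightest the 95% interval was -0.28 to 0.53. In negative cells the 3 brighter probe sets differed between mutants and wild types by -0.42 to -0.39, with unadjusted p from 0.00761 to 0.0433 and adjusted p = 0.976 each. None of the 4 passed in the test of the difference between sort effects (adjusted p = 0.255 to 0.929).

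Nrp2, the co-receptor of VEGF-C and semaphorin 3F, passed in 1 of its 4 probe sets. All 4 were higher on average in wild-type positive than wild-type negative cells. The brightest (1426528_at) read 10.21, 11.45 and 10.60 in mutant positive, 11.80, 11.09 and 10.95 in wild-type positive, 10.10, 10.19 and 10.68 in mutant negative and 10.28, 9.98 and 10.49 in wild-type negative cells. Its wild-type positive arrays lay above the negative ones, its mutant positive arrays overlapped every other group, and no difference passed. The third (1456778_at) read 9.86, 10.14 and 9.30 in mutant positive, 10.65, 10.51 and 10.60 in wild-type positive, 9.59, 9.44 and 9.30 in mutant negative and 9.69, 9.40 and 9.53 in wild-type negative cells. It was higher in wild-type positive than negative cells by 1.04 ± 0.18 (adjusted p = 0.00705), and it differed by -0.82 ± 0.18 between mutant and wild-type positive cells (adjusted p = 0.0289). The wild-type call ended without both wild-type arrays numbered 1 (adjusted p = 0.0611). The genotype call ended without mutant positive array 1 or any 1 wild-type positive array (adjusted p = 0.0564 to 0.0818).

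The other two Nrp2 probe sets did not pass in any comparison. For 1435349_at the genotype difference in positive cells was 0.16 ± 0.31, and for 1447343_at it was -0.60 ± 0.26 (adjusted p = 0.26, or 0.0498 without mutant positive array 3). In the wild type, 1447343_at differed by 0.86 ± 0.26 between positive and negative cells (adjusted p = 0.109). It passed without mutant positive array 3 (adjusted p = 0.0325) and with the wild-type groups alone in the fit (0.0411). There 1426528_at differed by 1.03 ± 0.32 (adjusted p = 0.113, or 0.0483 without mutant positive array 2). For 1435349_at the arrays overlapped (0.50 ± 0.31, adjusted p = 0.542). The mean of all Nrp2 probe sets passed in this comparison (0.86, adjusted p = 0.00145). The sort effect of Nrp2 did not pass in mutants for any of the 4, with differences from 0.33 to 0.73.

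Markers of other cells moved with the sort as well. Neural ectoderm markers were lower in positive cells of both genotypes (3 of 3 in each), with means of 6.11 to 7.96 in mutant positive against 10.58 to 10.64 in mutant negative arrays and 6.86 to 8.14 in wild-type positive against 10.15 to 10.64 in wild-type negative arrays. Epithelial markers were also lower in both (2 of 2 in each), as were 1 of 3 paraxial mesoderm markers in mutants and 2 of 3 in wild types. In the mutant sort 3 of 4 cardiac and 3 of 4 lateral plate and allantois markers were higher, against 0 of 4 and 1 of 4 in the wild-type sort. Primitive blood markers were higher in 0 of 5 in the mutant sort and 4 of 5 in the wild-type sort. The part of these cells in the sort differences of the members was not tested.

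**Figure D3:**
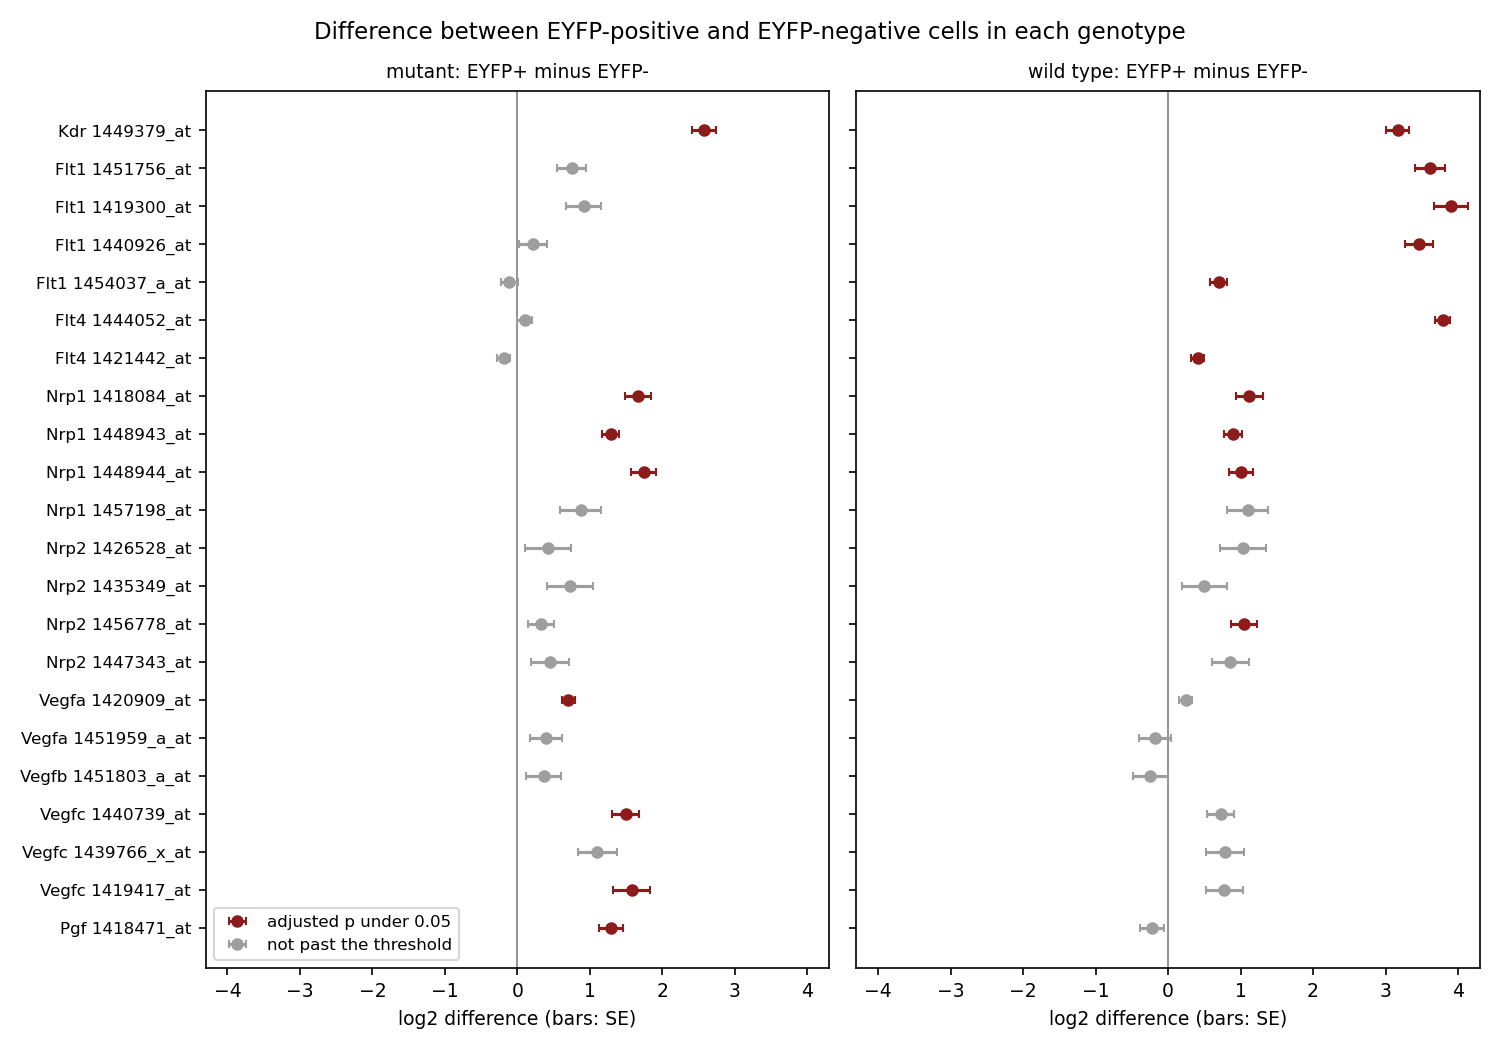
Log2 difference between EYFP+ and EYFP- cells (horizontal axis) for the 22 probe sets, in mutants (left) and wild types (right). Points are limma estimates, bars their SE, and red marks an adjusted p under 0.05. Kdr and the 3 brighter Nrp1 probe sets are red in both panels, all of Flt1 and Flt4 and 1 of Nrp2 in wild types, and 1 of Vegfa, 2 of Vegfc and Pgf in mutants.

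Among the ligands, Pgf, a ligand of Flt1, was higher in mutant positive cells than in every other group. Its probe set (1418471_at) read 8.89, 9.14 and 9.22 in mutant positive cells, 7.43, 7.58 and 7.77 in wild-type positive cells, 7.77, 7.74 and 7.86 in mutant negative cells, and 7.43, 7.94 and 8.09 in negative cells of the wild type. The 3 mutant positive arrays stood above the other 9, which overlapped between groups. Pgf rose by 1.49 ± 0.17 relative to wild-type positive cells (2.81-fold, adjusted p = 0.000406) and by 1.29 ± 0.17 relative to mutant negative cells (2.45-fold, adjusted p = 0.00237). In the wild type the sort difference was -0.22 ± 0.17 (adjusted p = 0.632), and the difference between the sort effects was 1.52 ± 0.23 (adjusted p = 0.00832, or 0.0939 by Benjamini-Yekutieli). The genotype difference stayed between 1.41 and 1.59 under the alternatives tried, and its adjusted p was at most 0.00298 whenever arrays were left out, mutant positive array 1 included.

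Vegfa, the main ligand of Kdr, was modestly higher in mutant positive cells. The brighter probe set (1420909_at) read 8.91, 9.04 and 8.98 in mutant positive cells, 8.54, 8.37 and 8.51 in wild-type positive cells, 8.30, 8.34 and 8.19 in mutant negative cells, and 8.18, 8.34 and 8.17 in negative cells of the wild type. Mutant positive arrays were the highest, wild-type positive arrays came next without overlapping either side, and the negative groups overlapped. Vegfa was higher by 0.50 ± 0.09 than in wild-type positive cells (1.42-fold, adjusted p = 0.0097) and by 0.70 ± 0.09 than in mutant negative cells (1.63-fold, adjusted p = 0.00245). The first of these calls ended with the 2 positive groups alone in the fit (adjusted p = 0.0666) and under Benjamini-Yekutieli adjustment (0.109). The wild-type sort difference, 0.24 ± 0.09, did not pass (adjusted p = 0.209), nor did the difference between sort effects, 0.46 ± 0.13 (adjusted p = 0.166). The dimmer probe set (1451959_a_at) ran from 6.90 to 7.48 in mutant positive, 6.46 to 6.92 in wild-type positive, 6.43 to 7.09 in mutant negative and 6.48 to 7.14 in wild-type negative cells. Its genotype difference in positive cells was as large but less certain, at 0.53 ± 0.22 (adjusted p = 0.244).

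Cardiac markers, by their mean, were also highest in mutant positive cells, as were Pgf and Vegfa. The mean of 4 of them lay at 11.63 to 12.17 in mutant positive, 9.46 to 10.39 in wild-type positive, 9.80 to 10.53 in mutant negative and 10.10 to 10.68 in wild-type negative arrays, and all 4 were higher in mutant positive than in wild-type positive cells. Of 4 lateral plate and allantois markers 1 was, with list means of 9.02 to 9.85 in mutant positive against 8.51 to 8.56 in wild-type positive arrays. The part of these cells in the ligand differences was not tested.

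Vegfb, a ligand of Flt1, did not pass in any comparison. It read 9.94, 10.25 and 9.23 in mutant positive, 9.61, 9.20 and 9.36 in wild-type positive, 9.53, 9.71 and 9.07 in mutant negative and 9.50, 9.75 and 9.66 in wild-type negative cells (1451803_a_at). The groups overlapped, and the mutant positive arrays alone spanned more than the group means did. The difference between mutant and wild-type positive cells was 0.42 ± 0.24 (95% interval -0.12 to 0.95, adjusted p = 0.424).

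Vegfc, the ligand of Flt4, was higher in positive than in negative cells of the mutant. Its brightest probe set (1440739_at) read 11.14, 11.35 and 11.38 in mutant positive cells, 11.63, 11.41 and 11.13 in wild-type positive cells, 9.76, 10.01 and 9.60 in mutant negative cells, and 10.52, 10.40 and 11.06 in negative cells of the wild type. The 2 positive groups overlapped at the top, and the mutant negative arrays lay below all others. The mutant sort difference was 1.497 ± 0.19 (2.82-fold, adjusted p = 0.00208), and 1419417_at gave 1.58 ± 0.26 (adjusted p = 0.00834). The third probe set, 1439766_x_at, gave 1.10 ± 0.26 (adjusted p = 0.0563, or 0.0128 and 0.0146 with the pair as a fixed and a random block, and 0.0442 without wild-type negative array 3). In the wild type the 3 differences were 0.73, 0.78 and 0.78, and none passed (adjusted p = 0.0553 to 0.155). The brightest passed there without wild-type positive array 3 (adjusted p = 0.0446) or wild-type negative array 3 (adjusted p = 0.016). With all 12 arrays it passed under some alternatives but not all. These were 1 probe set per gene (adjusted p = 0.0329) and probe sets above the 25th percentile or median of means (0.0492 and 0.0455). Centring each array on its median (0.046) and a random block (0.0295) also gave a pass. The mean of the 3 Vegfc probe sets passed as well (0.76, adjusted p = 0.0236).

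In the negative cells Vegfc 1440739_at and 1419417_at differed between mutants and wild types by -0.87 ± 0.19 and -1.06 ± 0.26, with unadjusted p = 0.000744 and 0.00176. Neither passed after adjustment over all probe sets (adjusted p = 0.976 each). Between mutant and wild-type positive cells the 3 probe sets differed by -0.10, -0.04 and -0.26 (adjusted p = 0.664 to 0.956). The differences between the sort effects were 0.77, 0.32 and 0.80 and did not pass (adjusted p = 0.305 to 0.878), so the mutant-only call is not shown to differ from the wild type.

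Counted over the 22 probe sets, 8 passed as higher and 0 as lower in mutant positive against mutant negative cells, where 1.55% of all probe sets passed as higher and 1.07% as lower (11 of the 22 with the pair as a fixed or random block; 1848 or 1993 of all against 1181). In wild-type positive against wild-type negative cells 11 passed as higher and 0 as lower, against 2.76% and 1.72% of all. In mutant positive against wild-type positive cells 2 were higher (Vegfa and Pgf) and 6 lower (3 of Flt1, 2 of Flt4 and 1 of Nrp2), against 2.08% and 2.34%. The difference between sort effects passed for 1 as higher (Pgf) and 6 as lower (4 of Flt1 and 2 of Flt4), against 0.38% and 0.893%. Mutant and wild-type negative cells gave 0 calls among the 22 and 0% of all probe sets by limma, with 6 of 22 and 2119 of 45037 at an unadjusted p under 0.05. The median difference of the 22 was 0.74 in the mutant sort and 0.88 in the wild-type sort, against -0.03 and -0.01 over all probe sets. It was -0.18 between mutant and wild-type positive cells, against -0.01 over all. Probe sets of 1 gene read the same gene on the same arrays and are not independent, and the comparisons share groups of arrays.

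**Figure D4:**
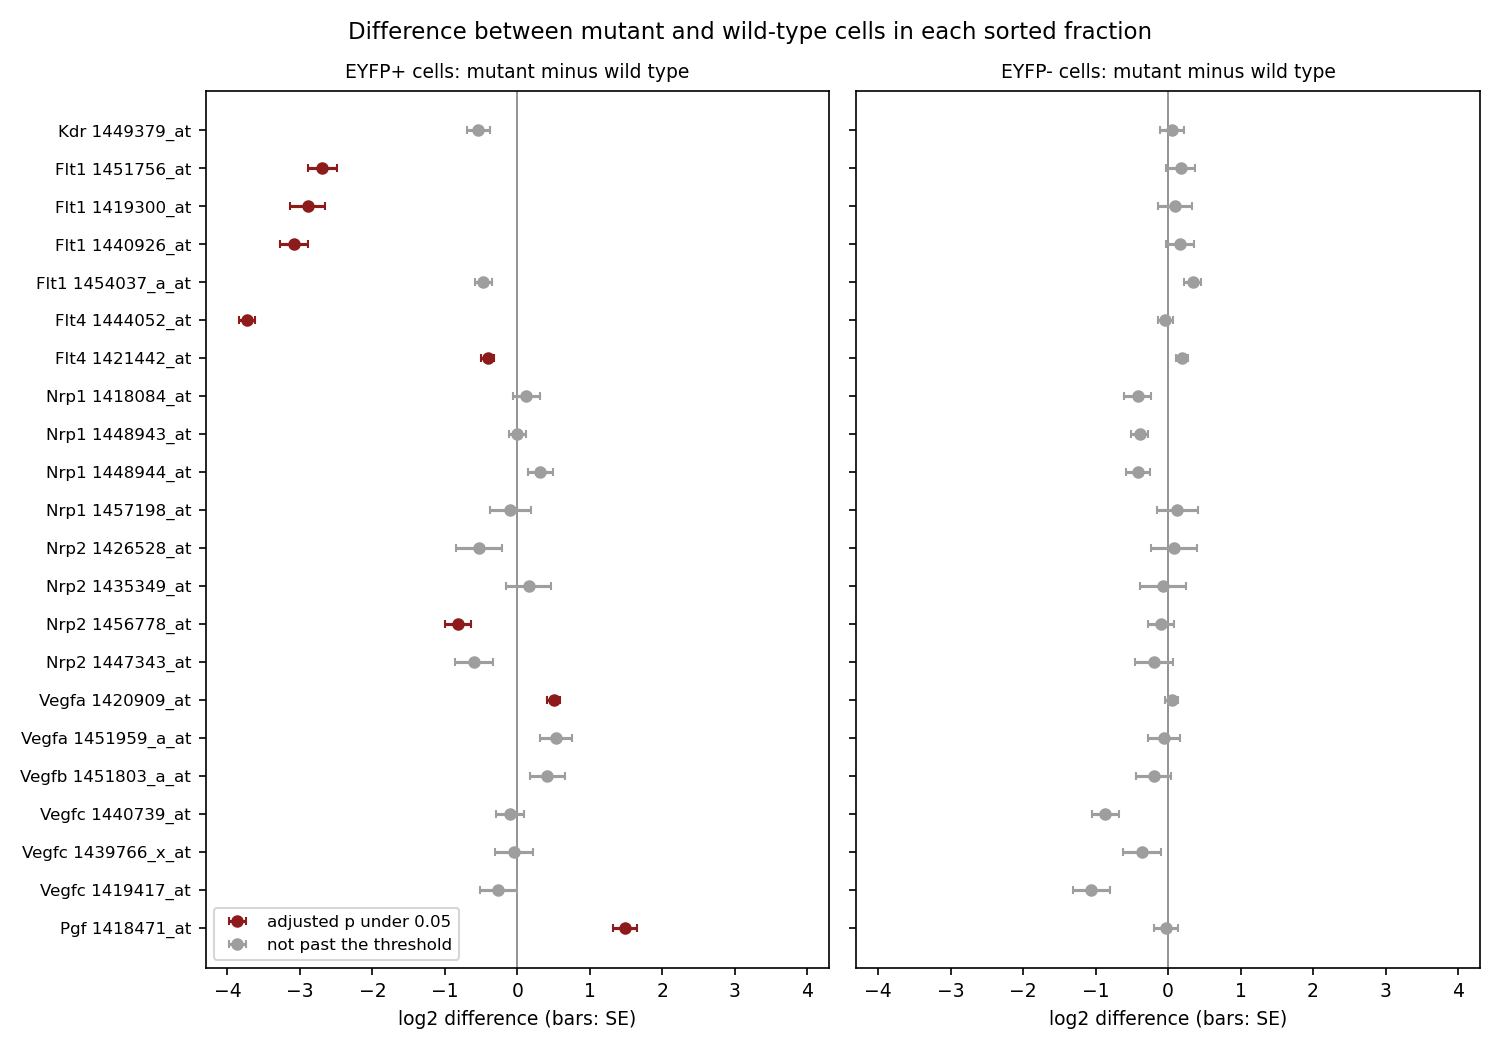
Log2 difference between mutant and wild-type cells (horizontal axis) for the 22 probe sets in EYFP+ cells (left) and EYFP- cells (right). Points are limma estimates, bars their SE, and red marks an adjusted p under 0.05. In EYFP+ cells the 3 brighter Flt1 probe sets and the brightest of Flt4 lie far left, between -3.73 and -2.69, and Pgf lies right; the dimmest of Flt1 and Flt4 lie near -0.47 and -0.41. None of the 22 is red in EYFP- cells.

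Of 58 other genes of the pathway 54 were measured, each by its brightest probe set. In mutant positive against wild-type positive cells 1 rose and 9 fell, where 3.16% and 3.11% of all genes did, with a list median of 0.0036 against 0.01 over all genes. Of 8 receptor partners and phosphatases 2 fell. Cdh5 (VE-cadherin, the junction protein that holds Kdr at cell contacts) read 5.09, 4.86 and 4.998 in mutant positive cells against 10.35, 10.04 and 10.29 in wild-type positive cells, and fell by 5.24 ± 0.11 (adjusted p = 1.97e-09). Ptprb (VE-PTP, an endothelial receptor phosphatase) fell by 3.59 ± 0.25 (adjusted p = 1.11e-05). The other 6 did not pass.

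Among semaphorins and plexins, Plxnd1, the receptor of semaphorin 3E on endothelium, read 8.08, 8.68 and 7.93 in mutant positive cells against 12.17, 11.55 and 11.75 in wild-type positive cells, and fell by 3.60 ± 0.24 (adjusted p = 6.68e-06). Sema3g fell by 1.11 ± 0.20 (adjusted p = 0.00966), and the other 10 of 12 did not pass. Esm1 (endocan, made by VEGF-stimulated endothelium) was the 1 of 7 VEGF response genes that passed, at 4.24, 4.24 and 4.21 in mutant positive cells against 8.54, 7.58 and 8.75 in wild-type positive cells. Of 18 measured signalling genes 4 were lower: Nos3 (endothelial nitric oxide synthase) by -2.15 ± 0.14, the Src-family kinases Yes1 by -1.58 ± 0.24 and Fyn by -1.31 ± 0.15, and the docking protein Gab1 by -1.19 ± 0.17 (adjusted p = 6.21e-06 to 0.00341). The 1 rise was Ccbe1, the cofactor of VEGF-C processing, at 1.37 ± 0.31 (adjusted p = 0.0315).

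In the wild-type sort 12 of the 54 rose and 2 fell, where 3.84% and 2.65% of all genes did. Those that rose included Cdh5 by 5.44 ± 0.11, Plxnd1 by 4.27 ± 0.24, Epas1 (HIF-2 alpha, a hypoxia factor that induces Vegfa) by 2.37 ± 0.34 and the prolyl hydroxylase Egln3 by 1.27 ± 0.29, and Sema3c and Sema3d changed by -1.49 ± 0.33 and -0.97 ± 0.23 (limma adjusted p from 1.45e-09 to 0.0359). In the mutant sort 5 rose and 1 fell, where 2.37% and 1.74% of all genes did. Those that rose were Prkcb (protein kinase C beta) by 1.91 ± 0.31, Epas1 by 1.72 ± 0.34, Vegfd by 1.498 ± 0.34, Ccbe1 by 1.33 ± 0.31 and Itga9 (integrin alpha 9, which binds VEGF-C and VEGF-D) by 1.06 ± 0.22, while Sema3a fell by 1.16 ± 0.27 (limma adjusted p from 0.00805 to 0.0492). Vegfd, the other ligand of Flt4, read 8.02, 7.65 and 8.69 in mutant positive, 6.95, 7.36 and 6.23 in wild-type positive, 6.58, 6.15 and 7.14 in mutant negative and 6.63, 7.0 and 6.92 in wild-type negative cells. On this brightest probe set (1438953_at) the mutant positive arrays were above the other 9, and the difference from wild-type positive cells, 1.28 ± 0.34, did not pass (adjusted p = 0.0617). Of its dimmer probe sets, 1438954_x_at gave 1.31 ± 0.30 in the mutant sort (adjusted p = 0.0483) and 1.11 ± 0.30 between the positive groups (adjusted p = 0.0686). The third, 1449528_at, overlapped in both and passed in neither (0.57 ± 0.29, adjusted p = 0.505, and 0.50 ± 0.29, adjusted p = 0.416). The difference between sort effects passed for 0 as higher and 6 as lower (Cdh5, Esm1, Ptprb, Plxnd1, Nos3 and Fyn), where 0.594% and 1.27% of all genes passed, and 0 of 54 passed between the negative groups, where 0% of all genes did.

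**Figure D5:**
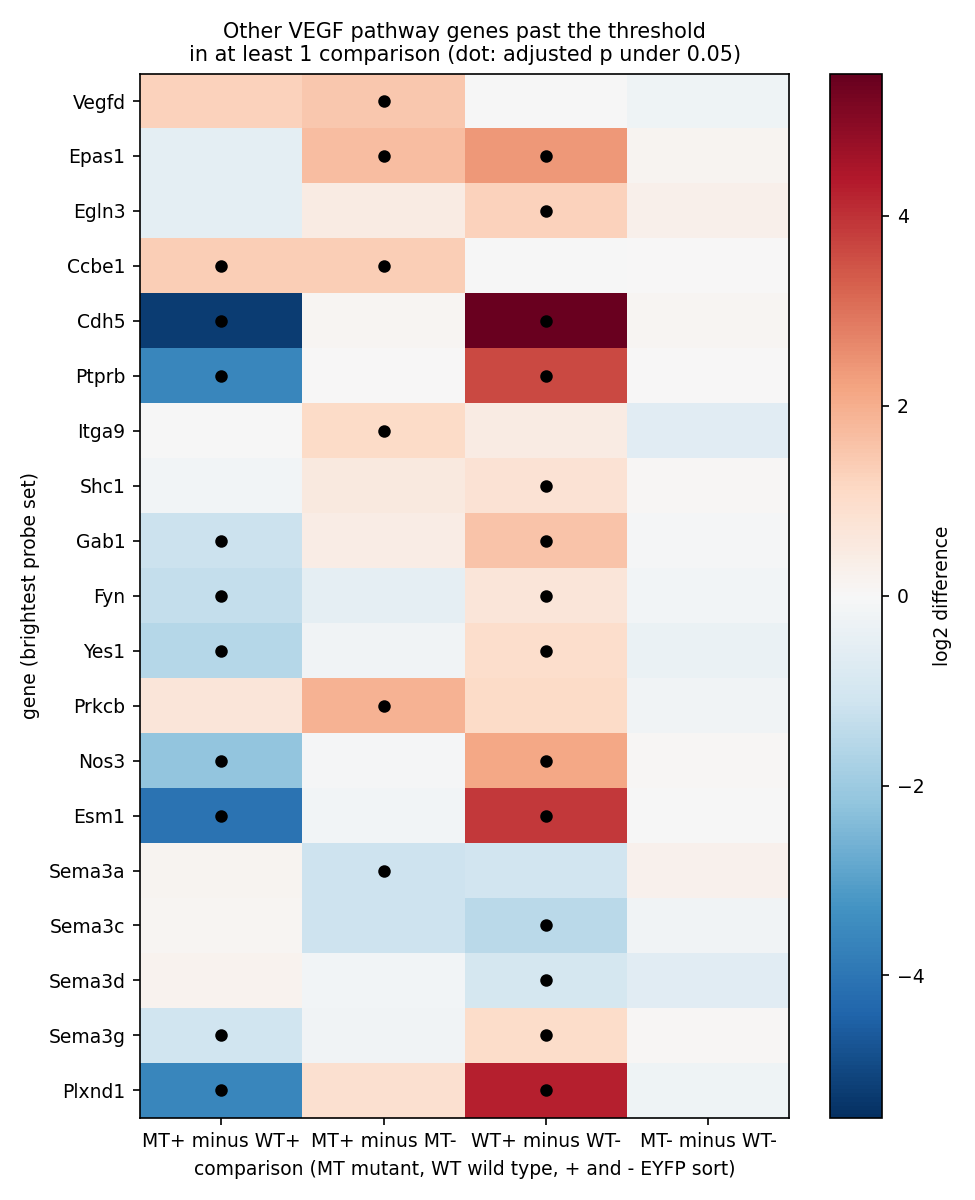
Log2 difference (colour) of the other pathway genes that passed in at least 1 comparison, by brightest probe set, in 4 comparisons of mutant (MT) and wild-type (WT) cells of the EYFP+ and EYFP- sort. Dots mark an adjusted p under 0.05. Cdh5, Ptprb, Plxnd1, Esm1 and Nos3 are blue between mutant and wild-type EYFP+ cells, and the last column, of EYFP- cells, has no dot.

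Centred on their own means, the genes whose values over the 12 arrays lay closest to each member were found among 16353 genes, by the root mean square difference in log2 units. For Flt4 they were Stab1 (0.174), Cyyr1 (0.192) and Sox18 (0.201), and for Flt1 Shank3 (0.345), Slc18a2 (0.363) and Lmo2 (0.364). For Kdr the nearest were farther, Nid1 (0.4), Lama4 (0.434) and Ppp1r13b (0.438), with Kdr itself varying by an SD of 1.52 over the arrays. Nrp1 and Vegfc had 2 genes in common, Mef2c (0.249 and 0.275) and Tmem158 (0.251 and 0.208). Pgf was nearest to Rbm24 (0.198), Bves (0.204) and the transcription factor Hand2 (0.232). Nrp2 was nearest to Piezo1 (0.192), Vegfa to Igsf3 (0.105) and Vegfb to Ilf2 (0.139). Between members the closest were Vegfa and Vegfb (0.332), Nrp1 and Vegfc (0.347), Vegfa and Pgf (0.393) and Flt1 and Flt4 (0.473), and the farthest apart were Flt4 and Pgf (1.99). Genes of small spread are close to any other such gene by this measure, and the arrays share 4 groups, so these distances are descriptions with no test.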

How the data were processed

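Arrays of 12 samples, 3 in each of 4 groups by genotype and EYFP sort, were used. The deposited values are on the log2 scale and were made by the authors with RMA, as the submitters' processing notes state. Its version is not given in the sources used here. Of 45101 probe sets, 64 array controls were left out; 34945 had 1 gene symbol, 932 several and 9160 none listed. Nothing was rescaled, and dim probe sets were kept.

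A limma fit (version 3.58.1, R 4.3.3; lmFit, contrasts.fit and eBayes, two-sided) gave the tests, with a model of 4 groups with 8 residual degrees of freedom, over all 45037 probe sets. Benjamini-Hochberg adjustment was made within each of 5 contrasts, and an adjusted p under 0.05 passed, with no minimum fold. The fit was run on simulated data with independent errors and changes in wild-type positive cells only. It was checked there in the wild-type sort alone, so the other contrasts and paired arrays were not tested in this way. Errors of differences are moderated SEs. The number of arrays limits the precision.

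Named genes were every probe set of the 9 members, brightest first by mean over the arrays, and the pathway genes past the threshold, at most 4 per list and contrast by smallest unadjusted p. Likeness gave 3 genes per member, without clone-type names. The members, lists and rules were chosen with earlier results of these data known.

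Same-numbered positive and negative arrays were checked for pairing by correlating their deviations from group means across probe sets. The correlations were 0.659, 0.414 and 0.520 in mutants, which were taken as paired from the data since the labels state no pairing. In wild types they were 0.198, 0.0696 and 0.167, and these were not taken as paired. The wild-type positive and negative arrays numbered 1 nevertheless matched each other, and no other array, in Xist and Eif2s3y. The main tests used no block in either genotype, and calls with a block are given below. The other marker lists were primitive blood (5 genes), paraxial mesoderm (3), neural ectoderm (3), epithelium (2) and trophoblast (1 of 3 measured). Between mutant and wild-type positive cells 5 of 5 primitive blood markers fell, and none of the paraxial, neural, epithelial, yolk sac or trophoblast markers passed. Alternatives changed the probe sets tested, the scaling, the spread estimate, the block, the call rule and the arrays used.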

Additional observations from a re-analysis of the deposited data

Results flagged for a closer look

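The tests of whether the sort effect differs between genotypes passed for these items, in mutant minus wild-type sort differences on the log2 scale. For Flt1 the values were -2.86 (1451756_at), -2.99 (1419300_at), -3.24 (1440926_at) and -0.81 (1454037_a_at), with limma adjusted p = 0.000353, 0.000977, 0.000125 and 0.0456. For Flt4 they were -3.69 (1444052_at, adjusted p = 6.35e-07) and -0.60 (1421442_at, adjusted p = 0.0466). Pgf was the member with a positive value, 1.52 (adjusted p = 0.00832). Etv2 itself gave -3.36 (adjusted p = 3.53e-05). Of the other pathway genes, Cdh5 gave -5.34, Esm1 -4.06, Ptprb -3.63, Plxnd1 -3.38, Nos3 -2.21 and Fyn -1.17 (adjusted p from 7.33e-08 to 0.0192).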

How the results depend on the processing

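Among 2974 values of single probe sets under 29 alternatives, 2842 kept their side of the threshold, 83 lost a call, 49 gained one and 0 called values changed sign. Of the 2842, 39 were differences that did not pass and whose sign turned, among them that of the brightest Nrp1 probe set between the positive groups. The count of members called by their brightest probe set stayed within 1.5 times under every alternative run. With 1 array left out, the count of member probe sets ran from 10 to 13 in the wild-type sort, 6 to 9 between the positive groups, 8 to 9 in the mutant sort, 5 to 6 in the difference between sort effects and 0 to 0 between the negative groups. The calls over all probe sets ran from 1272 to 2013 (lowest without wild-type negative array 1), 1304 to 2095 (mutant positive array 1), 699 to 1191 (mutant positive array 2), 385 to 626 (wild-type negative array 3) and 0 to 1 in the same order. In the wild-type sort the 2018 calls became 1159 with a minimum of 1 log2 unit, 727 under Benjamini-Yekutieli adjustment and 962 without both wild-type arrays numbered 1, and member probe sets 6 (Benjamini-Yekutieli) and 7 (without both arrays). Between the positive groups, 1989 became 960 with these groups alone in the fit, 1024 with the minimum, 606 under Benjamini-Yekutieli, 1303 without both wild-type arrays numbered 1 and 1316 without mutant positive array 1 and mutant negative array 2, a choice made after seeing the data. Member probe sets there fell to 5 under each of the first 3. In the mutant sort, 1181 became 565, 744, 292 and, for the added choice, 692 under the same settings, and in the difference between sort effects 573 became 214 under Benjamini-Yekutieli and 373 under the added choice. Member probe sets in that difference were 4 under Benjamini-Yekutieli and 4 among probe sets above the median mean. The median filter removed Flt1 1440926_at and 1454037_a_at before the test, and Flt4 1421442_at no longer passed (limma adjusted p = 0.0722). With the replicate block within genotype, the mutant sort gave 1848 (fixed) and 1993 (random) calls, the difference between sort effects 878 and 1060, and the wild-type sort 3001 and 3252. The wild types were not taken as paired because their same-number correlations were lower than in mutants, though both arrays numbered 1 stood apart in Xist and Eif2s3y. In the wild-type sort the fixed block added Nrp1 1457198_at, Nrp2 1447343_at and Vegfc 1439766_x_at (adjusted p = 0.00783, 0.0121 and 0.0334) to the calls. The random block added Nrp1 1457198_at, Nrp2 1447343_at and Vegfc 1440739_at (adjusted p = 0.0141, 0.031 and 0.0295). Benjamini-Yekutieli adjustment also ended the wild-type sort calls of Nrp1 1418084_at and 1448944_at (adjusted p = 0.0549 and 0.0606) and the mutant sort call of Vegfc 1419417_at (0.0942). The cause of these shifts was not tested, beyond the filter, stricter rules and smaller fits that define them. The fixed block within genotype was not run across genotypes, nor the fit of the contrast's groups alone for the difference between sort effects, which needs all 4 groups. The dim Flt1 probe set 1454037_a_at, near the lower quartile, limits what can be said of its order.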
